A study of Mus musculus with 24 samples.

Results

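The genes of the neuronal cytoskeleton and of growing neurites were examined here in mouse adrenal glands and in tumors of the sympathoadrenal lineage. They were the neuronal tubulins Tubb3, Tubb2b and Tuba1a, the tubulin-binding and microtubule-associated genes Stmn2, Dcx and Map1b, the growth cone gene Gap43, and the intermediate filament genes Nefl, Nefm and Prph. They were picked by symbol and not by a measured level, but with earlier results of these data known. They are 10 of the 21833 protein-coding genes in the expression table. All 10 were among the 10171 genes tested, which had at least 1 FPKM (a level scaled to gene length and library size) in at least 3 libraries. Of the 10, 8 reached that level only through the tumors, and 6 of these stayed under 1 FPKM in every gland, so that a higher level in tumors was part of their being tested at all.

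Microtubules are hollow polymers of alpha- and beta-tubulin that run along axons and dendrites, and neurons build them from a particular set of tubulin isotypes. Stathmins bind free tubulin, doublecortin and the MAP family bind the polymer, GAP-43 lies under the membrane of the growth cone, and neurofilament subunits and peripherin form the intermediate filaments that fill and widen axons. Neuroblasts of the sympathetic lineage, from which neuroblastoma arises, carry many of these proteins, and peripherin is typical of neurons of the peripheral nervous system.

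The study compared 4 groups by polyA-enriched RNA-seq. The AG samples were adrenal glands without Cre (genotype CRE -, n = 3), and the AGM samples were adrenal glands with the MYCN transgene on 1 allele (MYCN +/-, CRE +, n = 5). TI were tumors with the IGF2BP1 transgene (CRE +, n = 8, of which 7 were IGF2BP1 +/+ and 1 was IGF2BP1 +/-), and TIM were tumors with both transgenes (IMP1/MYCN, CRE +, n = 8), IMP1 being another name of IGF2BP1. According to the study's methods the transgenes lay in the Rosa26 locus behind a stop cassette that Cre takes out, and Cre was driven by Dbh, a gene of noradrenergic cells. Of the TI samples 1 was labelled as tumor adrenal gland, and of the TIM samples 2 were so labelled and 1 as tumor spine. All AG samples belonged to sequencing run 1 and all AGM samples to run 2, 6 TI samples to run 1 with 1 each in runs 2 and 3, and 3 TIM samples to run 2 with 5 in run 3. In TIM vs AG and in AGM vs AG, run and group therefore cannot be told apart, and the table's columns name the group but not the sample, so that no value within a run could be given. Libraries are numbered below in the order of the columns. Ages were not used here.

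Every value was a whole multiple of 1 read in its library, within 0.1 reads. According to the study's methods the reads had been batch-corrected with ComBat-seq. Recovered reads, here and below, are therefore adjusted counts and not reads as sequenced. Outside the 126 genes that exceeded 1000 FPKM in any library, a library held between 12334076 and 23683176 recovered reads. Those 126 genes included no member, but in AGM and TIM they carried most of the recovered reads (totals of 58530450 to 1170004708 per library, against 12468968 to 21353172 in AG and TI). Mouse Igf2bp1 stayed at or under 0.0796 FPKM in every library, and the transgenes had no entry of their own, so the labels could not be checked on them. Markers of adrenal cortex summed over 8 genes to 645 to 667 FPKM in AG, 4293 to 5373 FPKM in AGM, and at most 10.1 FPKM in any tumor, and 7 of the 8 were lower in TI and in TIM than in AG. Of the 10171 tested genes 2822 were called lower in TI and 2897 in TIM. Of 7 sympathetic neuroblast markers 5 were higher in TI and in TIM than in AG, beside 24.6% and 22.5% of all tested genes. This list shares Th and Dbh with the list of chromaffin markers used below. Schwann cell and sustentacular markers summed over 6 genes to 0.268 to 1.66 FPKM in TI and 0.39 to 44.3 FPKM in TIM, against 2.97 to 5.33 FPKM in AG.

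In TI, all 10 members were higher than in AG, and the 8 TI libraries lay above all 3 AG libraries for each of them. The rises in mean FPKM ran from 9.01-fold for Map1b to 716-fold for Gap43. Among all tested genes 24.6% were called higher in TI and 23.8% had every TI library above every AG library. In TIM, 9 of 10 members were higher than in AG, Prph being the exception, and 8 of 10 had every TIM library above every AG library. The respective shares of all tested genes were 22.5% and 17.8%. Against AGM, all 10 members were higher in TIM (31.9% of all tested genes were) and 9 of 10 did not overlap (14.5% of all). The median log2 fold change of the members was 4.51 in TI vs AG, 4.20 in TIM vs AG and 4.20 in TIM vs AGM, and that of all tested genes was -0.0021, -0.0049 and 0.03. These were tests by limma on log2(FPKM + 1) with Benjamini-Hochberg adjustment over all 10171 genes (false discovery rate, FDR, below 0.05). TI vs AG and TIM vs AG share the 3 AG libraries. Since 8 of the 10 members were tested only through the tumors, a rise in tumors was partly fixed in advance. The shares and medians of all tested genes do not allow for that. In bulk tissue, more cells of a kind and more RNA per cell cannot be told apart. The p-values set a difference against the spread between samples, which in this fit came from the libraries of all groups. Nothing in the labels states that the samples of a group came from different or unrelated animals. The study describes mice with both transgenes that carried several tumors.

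**Figure D1:**
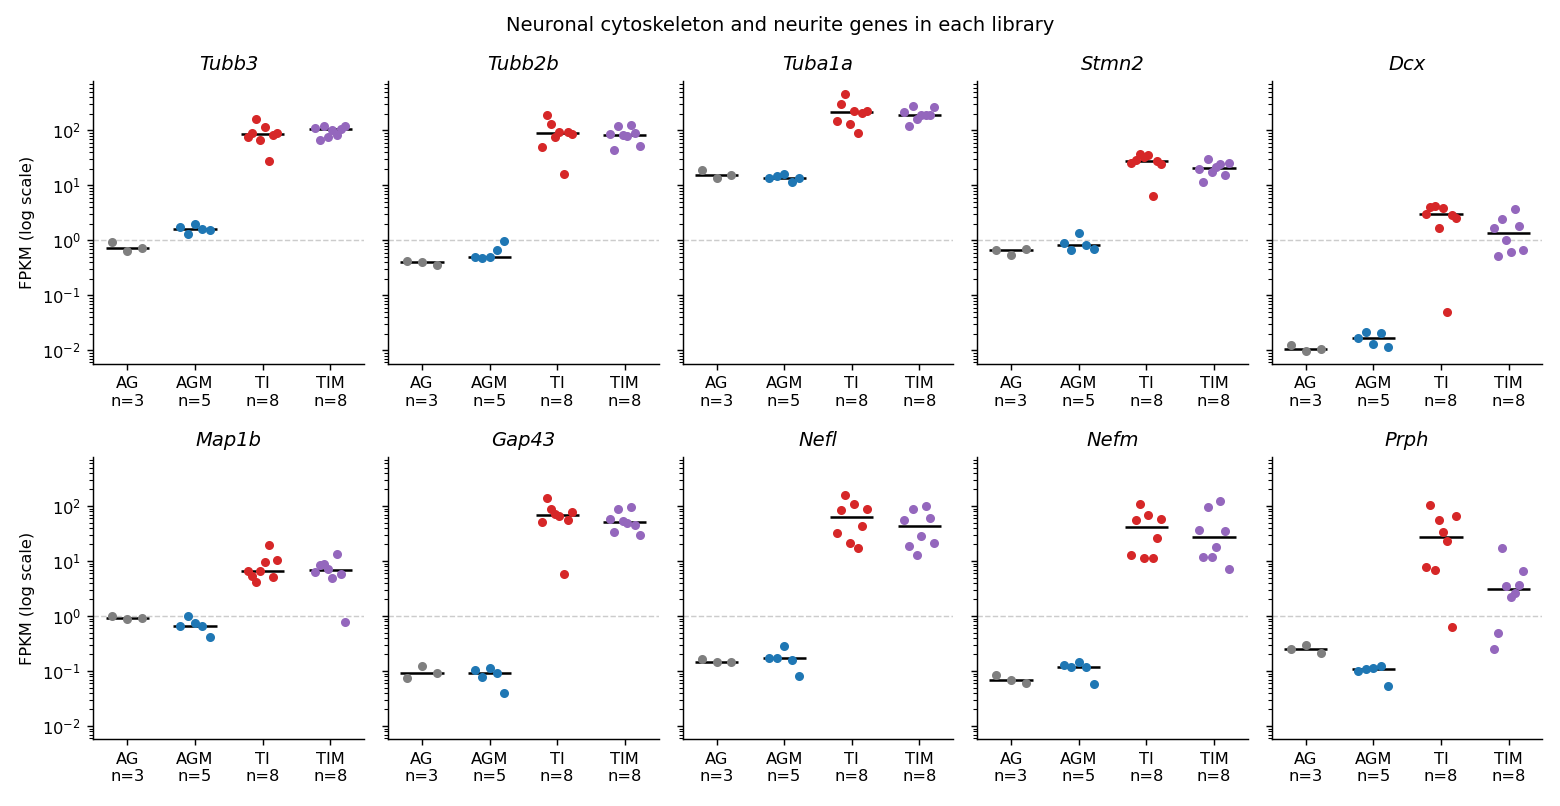
FPKM of the 10 genes (log axis) in each of the 24 libraries, by group (AG, AGM, TI, TIM). Points are libraries, black bars are group medians and the dashed line marks 1 FPKM. Tumors lie above glands in every panel apart from single TIM libraries of Map1b and Prph, and TI library 6 lies under the other TI libraries for 7 of the 10 genes.

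The beta-tubulin isotype Tubb3 (ENSMUSG00000062380, GRCm39 chr8:124138163-124150092, plus strand, 4 exons) is the tubulin most used as a marker of neurons. Its levels were 0.918, 0.651 and 0.726 FPKM in the AG libraries and 1.78, 1.29, 2.01, 1.61 and 1.54 FPKM in the AGM libraries. In TI it had a lowest value of 27.8, a median of 85.4 and a highest value of 158 FPKM, and in TIM of 66.0, 104 and 121 FPKM. Each tumor thus held many times the level of any gland, and the tumor groups overlapped. The mean was 88.2 ± 37.7 FPKM for TI, 97.9 ± 20.7 FPKM for TIM (SD, n = 8 each) and 0.765 ± 0.138 FPKM for AG (SD, n = 3), with log2 fold changes of 5.53 ± 0.31 in TI (SE, limma FDR 6.28e-13) and 5.78 ± 0.31 in TIM (SE, limma FDR 2.96e-13).

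Tubb2b (ENSMUSG00000045136, chr13:34307245-34315143, minus strand, 4 exons), a beta-tubulin of migrating and extending neurons, was at 0.414, 0.398 and 0.357 FPKM in AG. In AGM it was at 0.489, 0.484, 0.489, 0.665 and 0.974 FPKM. The TI libraries ranged from 16.3 over a median of 88.8 to 189 FPKM, and the TIM libraries from 44.5 over 83.8 to 124 FPKM. The gene rose 235-fold in mean FPKM in TI and 217-fold in TIM, with log2 fold changes of 5.80 ± 0.45 (SE, limma FDR 1.89e-10) and 5.87 ± 0.45 (SE, limma FDR 1.54e-10). In TI vs AG this was the second largest fitted rise of the 10171 genes by log2 fold change, and Gap43, Nefl and Tubb3 ranked 3, 5 and 6.

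Tuba1a (ENSMUSG00000072235, chr15:98847714-98851589, minus strand, 4 exons), the main alpha-tubulin of post-mitotic neurons, was the only member above 1 FPKM in every library. AG libraries held 18.7, 13.4 and 15.2 FPKM and AGM libraries 13.6, 14.5, 15.8, 11.6 and 13.8 FPKM, so the glands overlapped. TI libraries ran from 90.4 over a median of 217 to 460 FPKM and TIM libraries from 120 over 191 to 273 FPKM. Its rise was 14.2-fold in TI and 12.7-fold in TIM, from a gland level far above that of the other members, with log2 fold changes of 3.59 ± 0.33 (SE, limma FDR 3.54e-09) and 3.55 ± 0.33 (SE, limma FDR 4.29e-09).

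The tubulins differ in how well reads can be assigned to them. Of the 100-base stretches of the Tuba1a reference transcript (Ensembl canonical, GENCODE M39), 64.9% occurred unchanged in a transcript of another gene. There were 12 such genes. Tuba1c was the most frequent of them, and some genes with Gm symbols came ahead of Tuba1b. Of the 100-base stretches of Tubb2b 10.15% were shared in this way, chiefly with Tubb2a. For the other 8 members no such stretch was found. Tubb2b and Tubb2a differed at 47 of 1338 coding bases (96.5% identity), and Tuba1a and Tuba1b at 23 of 1356 (98.3%). The last 60 coding bases before the stop codon, which lie in the last exon and encode the acidic tail that stands out from the microtubule, show how little separates Tubb2b from Tubb2a. They are shown 5′ to 3′ on the coding strand, from chr13:34311457-34311516 (Tubb2b) and chr13:34258454-34258513 (Tubb2a) of GRCm39, both on the minus strand, with capitals at the bases that differ.
Tubb2b: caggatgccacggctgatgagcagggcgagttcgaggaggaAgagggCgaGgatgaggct
Tubb2a: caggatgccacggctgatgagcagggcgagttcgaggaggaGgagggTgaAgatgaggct
They differed at 3 of these 60 bases. Levels of Tuba1a and, to a lesser degree, Tubb2b are therefore uncertain. The counting may have split or dropped reads that fit 2 or more genes. Which it did is not given in the sources used here.

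The make-up of the tubulin families differed between glands and tumors as well as their amount. The 8 beta-tubulin genes summed to 51.4 ± 2.33 FPKM in AG (SD, n = 3) and 496 ± 172 FPKM in TI (SD, n = 8). Tubb3 took 1.49% ± 0.243 of that sum in AG and 2.76% ± 0.846 in AGM, but 17.5% ± 3.68 in TI and 21.4% ± 3.30 in TIM (means with SD). Tubb2b took 0.759% ± 0.0792 in AG, 1.01% ± 0.328 in AGM, 17.3% ± 5.80 in TI and 18.2% ± 4.80 in TIM. The most abundant beta-tubulin of AG was Tubb4b at 46.3%, ahead of Tubb5 at 38.5%, and that of the tumors was Tubb5 (46.2% in TI and 30.6% in TIM), with Tubb4b at 4.04% and 5.34%. Of the 8 alpha-tubulin genes, Tuba1a rose from 20.2% ± 1.93 of the sum in AG and 20.7% ± 3.463 in AGM to 64.4% ± 5.86 in TI and 62.4% ± 3.66 in TIM. Every tumor lay above every gland for these 3 shares. In exact two-sided permutation tests the adjusted p was 0.0138 for each of the 3 shares in TI vs AG and in TIM vs AG (raw p 0.00606, the smallest that 8 against 3 libraries allow) and 0.00648 in TIM vs AGM, with adjustment over 25 tests. The share of Tubb3 was 3.84 percentage points higher in TIM than in TI, which did not pass (exact permutation p = 0.0457, adjusted p = 0.0761). When Tuba1b, Tuba1c, Tuba3a and Tuba3b were left out of the alpha-tubulin sum, the Tuba1a share was 3.44 percentage points lower in TIM than in AG (exact permutation p = 0.461) and 41.1 percentage points lower in AGM than in AG (exact permutation p = 0.0179). The direction of the Tuba1a share in TIM vs AG and AGM vs AG thus changed with that choice. Without these genes Tuba1a was nearly the whole sum in AG (15.8 FPKM, with Tuba4a at 0.241 and Tuba8 at 0.192 FPKM). Its share could therefore hardly be higher in another group, and the choice does not settle how reads were split between copies. The mean level of Tuba4a was 0.241 FPKM for AG and 0.354 FPKM for TI, but 9.17 FPKM for AGM and 10.3 FPKM for TIM.

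**Figure D2:**
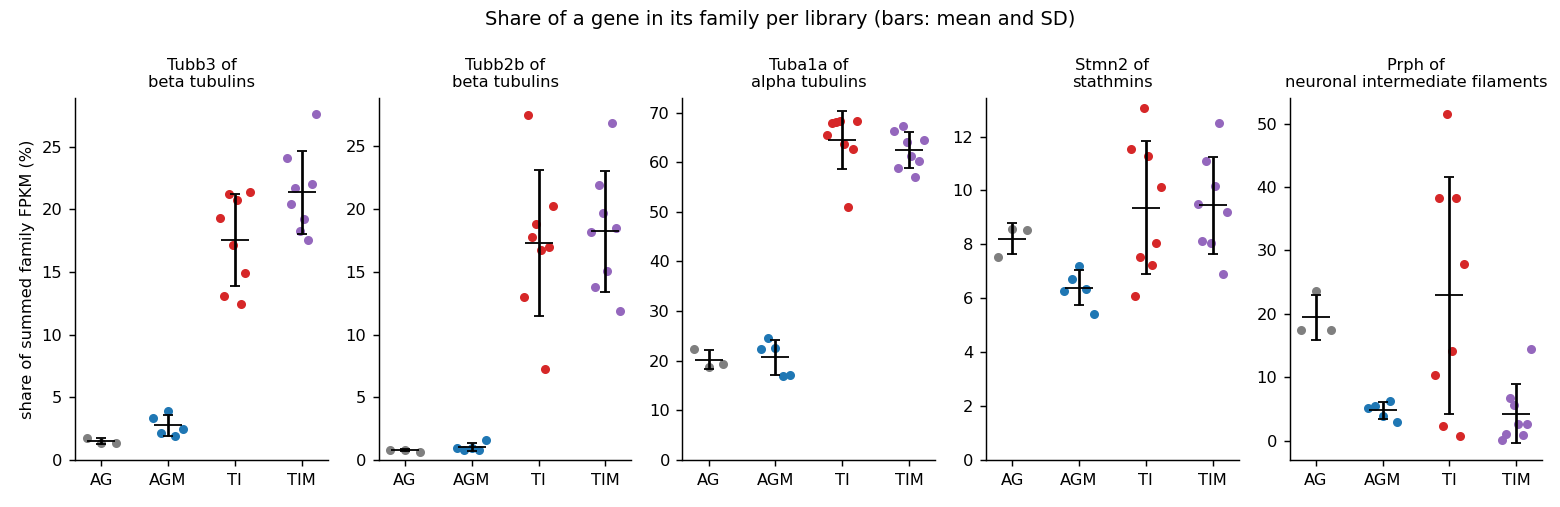
Share of each gene in the summed FPKM of its family, in percent, per library (points) with group mean and SD (bars), for AG (n = 3), AGM (n = 5), TI (n = 8) and TIM (n = 8). Tubb3, Tubb2b and Tuba1a take larger shares in every tumor than in any gland, the Stmn2 share lies between 5.42% and 13.05% over all libraries and is lowest on average in AGM (6.39%), and the Prph share spreads from 0.73% to 51.4% in TI.

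The sequence upstream of 5 members was held in the promoter table used here (RefSeq, GRCm38.p6): Tubb3, Tuba1a, Map1b, Prph and Dcx, the last with 2 start sites. Tubb2b, Stmn2, Gap43, Nefl and Nefm had no entry. The 250 bases before the start are shown for Tubb3 and Tuba1a, whose levels went together in the tumors, and for Prph, the member that differed between the tumor groups. They come from chr8:123411303-123411552 (plus strand), chr15:98953502-98953751 (minus strand) and chr15:99054924-99055173 (plus strand) and are written 5′ to 3′. Capitals mark the motif TATAA, the motif CCAAT or the motif GGGCGG on either strand, with adjacent matches running together.
Tubb3: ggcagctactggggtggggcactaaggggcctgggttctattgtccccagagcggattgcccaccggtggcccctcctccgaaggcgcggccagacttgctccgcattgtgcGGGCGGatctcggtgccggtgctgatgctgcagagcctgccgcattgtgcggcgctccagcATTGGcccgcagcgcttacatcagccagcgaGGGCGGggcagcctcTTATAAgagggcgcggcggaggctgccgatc
Tuba1a: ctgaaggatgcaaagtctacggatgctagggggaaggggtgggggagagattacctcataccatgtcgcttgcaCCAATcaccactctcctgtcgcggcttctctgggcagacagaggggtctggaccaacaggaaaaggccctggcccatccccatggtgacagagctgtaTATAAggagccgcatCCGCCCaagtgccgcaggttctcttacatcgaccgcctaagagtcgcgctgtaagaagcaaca
Prph: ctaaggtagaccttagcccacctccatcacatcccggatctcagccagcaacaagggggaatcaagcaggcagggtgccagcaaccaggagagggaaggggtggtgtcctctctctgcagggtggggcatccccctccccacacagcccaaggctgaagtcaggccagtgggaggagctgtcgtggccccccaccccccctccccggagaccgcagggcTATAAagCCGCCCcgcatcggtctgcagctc
TATAA was found in all 5 members, against 22.8% of the 32851 upstream windows of the table, and its first base lay at -31 in Prph, -30 in Tubb3, -78 in Tuba1a and -99 in Map1b. GGGCGG was found in Tubb3, Tuba1a, Prph and Map1b (32.7% of all), and CCAAT in Tubb3, Tuba1a and 1 of the Dcx windows (33.85% of all). CACGTG, the E-box form typical of MYC proteins, was found in none of the members' windows and in 6.02% of all, and the wider form CANNTG in Tuba1a and Map1b only, against 66.2% of all. TATAA was added to the motifs after the sequences had been seen, and a match of letters is not a bound site.

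Stmn2 (ENSMUSG00000027500, chr3:8574151-8626667, plus strand, 5 exons) encodes the stathmin of growth cones. It was at 0.674, 0.551 and 0.691 FPKM in AG and at 0.898, 0.674, 1.36, 0.806 and 0.693 FPKM in AGM. TI ranged from 6.45 over 28.2 to 36.4 FPKM, and TIM from 11.7 over 20.8 to 29.6 FPKM. The lowest TI library stood apart, since the next held 24.5 FPKM. The log2 fold changes were 3.97 ± 0.34 in TI (SE, limma FDR 9.6e-10) and 3.68 ± 0.34 in TIM (SE, limma FDR 3.63e-09). For the share of Stmn2 in its family no difference from AG passed the test in the tumors. It made up 8.21% ± 0.588 of the 4 stathmins in AG, 9.36% ± 2.47 in TI (difference 1.15 percentage points, exact permutation p = 0.448, adjusted p = 0.561) and 9.44% ± 1.81 in TIM (difference 1.23, exact permutation p = 0.291, adjusted p = 0.404). Against AGM, where the share was 6.39%, it was 3.06 percentage points higher in TIM (exact permutation p = 0.00544, adjusted p = 0.0138), with 7 of 8 TIM libraries above every AGM library. The other stathmins rose with it, Stmn1 to 177 FPKM, Stmn3 to 70.0 FPKM and Stmn4 to 27.1 FPKM on average in TI.

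Dcx (ENSMUSG00000031285, chrX:142638838-142716307, minus strand), doublecortin, marks migrating immature neurons and had the lowest levels of all members. AG held 0.0125, 0.0104 and 0.00976 FPKM, which were 13 to 17 reads, and AGM held 0.0113 to 0.0215 FPKM. TI ran from 0.0488 over 2.98 to 4.24 FPKM and TIM from 0.527 over 1.35 to 3.78 FPKM. The lowest TI value was from library 6, which with 65 reads still lay above every gland. In mean FPKM Dcx rose 256-fold in TI and 145-fold in TIM. On the log2(FPKM + 1) scale, which compresses low values, it rose by 1.77 ± 0.37 (SE, limma FDR 0.000311) and, in TIM, by 1.24 ± 0.37 (SE, limma FDR 0.00707). With limma-voom on the recovered reads the changes were 7.33 (FDR 0.113) and 6.67 (FDR 0.156), neither past the threshold.

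Map1b (ENSMUSG00000052727, chr13:99557954-99653137, minus strand) encodes a microtubule-associated protein of extending axons. AG libraries held 1.02, 0.875 and 0.916 FPKM and AGM libraries 0.651, 0.987, 0.741, 0.652 and 0.414 FPKM. TI ranged from 4.08 over 6.64 to 19.4 FPKM and TIM from 0.779 over 6.80 to 13.4 FPKM. TIM library 8, with the lowest value, lay below every AG library and within the AGM range, and the other 7 TIM libraries lay above every gland. The gene rose least of the members in mean FPKM, 9.01-fold in TI and 7.43-fold in TIM, with log2 fold changes of 2.15 ± 0.42 (SE, limma FDR 0.000171) and 1.85 ± 0.42 (SE, limma FDR 0.000787).

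Gap43 (ENSMUSG00000047261, chr16:42068805-42161086, minus strand), a membrane-associated protein of the growth cone, was nearly absent from glands. It was at 0.0734, 0.125 and 0.0928 FPKM in AG (12 to 20 reads) and at 0.0392 to 0.114 FPKM in AGM (5 to 14 reads). In TI it ran from 5.84 over 68.8 to 139 FPKM and in TIM from 30.2 over 50.4 to 94.3 FPKM. In mean FPKM it rose 716-fold in TI, more than any other member, and 579-fold in TIM, where Nefm rose 605-fold, with log2 fold changes of 5.67 ± 0.54 (SE, limma FDR 7.75e-09) and 5.60 ± 0.54 (SE, limma FDR 9.28e-09). Basp1, which encodes a related growth cone protein and is no member, had a mean of 0.895 FPKM for AG, 104 FPKM for TI and 88.8 FPKM for TIM.

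The neurofilament light and medium chain genes lie at the same locus. Nefl (ENSMUSG00000022055, chr14:68321268-68326544, plus strand) falls within the annotated span of Nefm (ENSMUSG00000022054, chr14:68320039-68362305, minus strand). The libraries were strand-specific, but whether the counting used the strand is not given in the sources used here. Without it, reads of overlapping exons on opposite strands could not be told apart. Nefl was at 0.165, 0.146 and 0.145 FPKM in AG and 0.0813 to 0.28 FPKM in AGM, and Nefm at 0.0838, 0.0674 and 0.0603 FPKM in AG and 0.0578 to 0.149 FPKM in AGM. In TI, Nefl ran from 17.0 over 64.4 to 157 FPKM and Nefm from 11.2 over 41.0 to 111 FPKM. In TIM they ran from 13.1 over 42.5 to 99.9 FPKM and from 7.11 over 26.9 to 123 FPKM. Both were thus far above the glands in every tumor, with a spread within a tumor group of 7.62-fold to 17.2-fold between its lowest and highest library. Log2 fold changes were 5.57 ± 0.59 for Nefl (SE, limma FDR 4.72e-08) and 4.96 ± 0.72 for Nefm (SE, limma FDR 4.44e-06) in TI, and 5.09 ± 0.59 (SE, limma FDR 1.91e-07) and 4.73 ± 0.72 (SE, limma FDR 8.49e-06) in TIM.

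Prph (ENSMUSG00000023484, chr15:98952872-98956862, plus strand, 101 kb from Tuba1a) encodes peripherin. AG held 0.252, 0.295 and 0.217 FPKM (46 to 62 reads) and AGM 0.0987, 0.109, 0.112, 0.121 and 0.0538 FPKM (9 to 21 reads). TI libraries held 7.81, 105, 7.005, 55.2, 33.0, 22.8, 0.643 and 65.6 FPKM. TIM libraries held 0.255, 0.487, 17.0, 3.51, 2.20, 2.67, 3.62 and 6.70 FPKM. All TI libraries lay above AG, library 7 by little, whereas TIM library 1 lay within AG and library 2 just above it. The TI mean was 37.1 ± 36.0 FPKM and the TIM mean 4.55 ± 5.41 FPKM (SD, n = 8 each), with log2 fold changes against AG of 4.06 ± 0.88 (SE, limma FDR 0.000516) and 1.67 ± 0.88 (SE, limma FDR 0.121). The TIM change was called in 2 of 33 settings, with a pseudocount of 0.1 (2.88, limma FDR 0.0317) and, just under the threshold, with FPKM recomputed outside the 126 genes (2.57, limma FDR 0.049975). With limma-voom the TI change was 6.12 (FDR 0.0977).

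**Figure D3:**
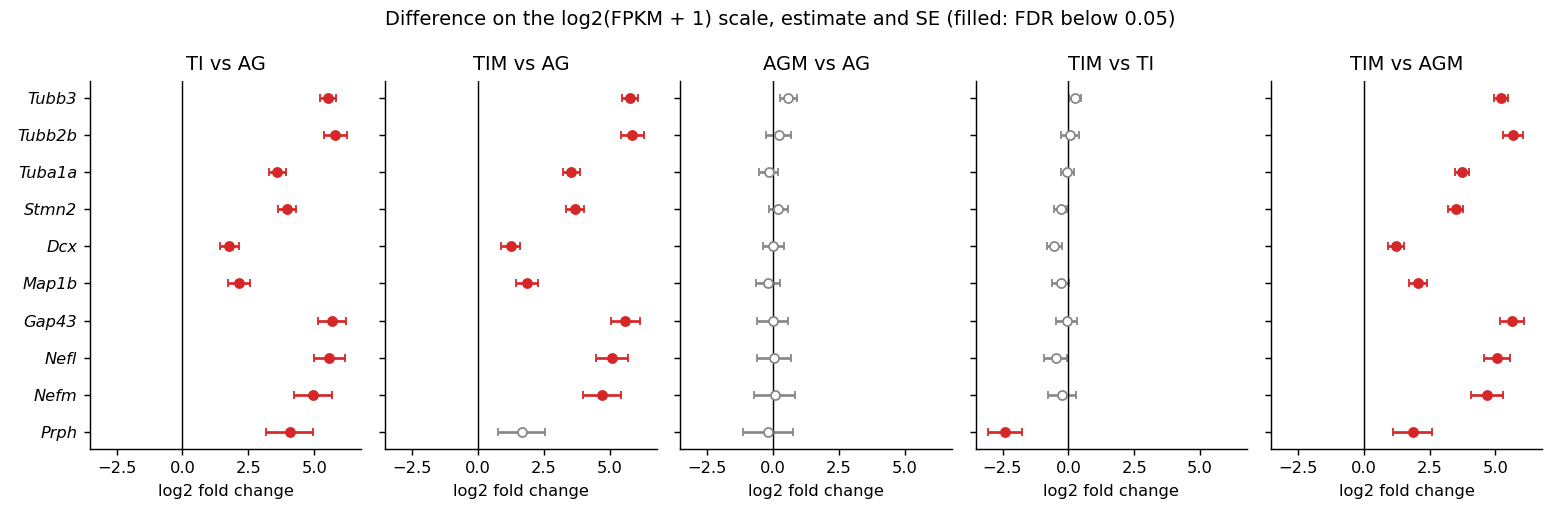
Log2 fold change of the 10 genes in the 5 comparisons on the log2(FPKM + 1) scale. Points are limma estimates with SE, filled where the FDR is below 0.05. All 10 are filled in TI vs AG and TIM vs AGM, 9 in TIM vs AG (not Prph), 0 in AGM vs AG, and 1 in TIM vs TI (Prph).

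AGM was compared with AG to see what accompanied the MYCN transgene in the gland without IGF2BP1. AGM also carried Cre, which AG lacked, and belonged to another sequencing run, so transgene, Cre and run cannot be told apart. No member was called by limma or by limma-voom, and 0 of 10 had an unadjusted limma p under 0.05. Of all tested genes 28.6% were called. The spread in that fit came from all 24 libraries, tumors included, and the log2(FPKM + 1) scale compresses low values. For members far under 1 FPKM in the glands the lack of a call therefore says little. The largest difference was that of Tubb3, 0.58 ± 0.33 on the log2 scale (SE, limma FDR 0.202), a 2.15-fold higher mean. All 5 AGM libraries lay above all AG libraries for Tubb3 and Tubb2b, as they did for 29.4% of tested genes, and all 5 lay below AG for Prph, as for 32.5%. When only the AG and AGM libraries set the spread, Tubb3 (0.58, limma FDR 0.00118) and Prph (-0.19, limma FDR 0.00061) were called. Of the 10171 tested genes 6312 were called in that setting. With a pseudocount of 0.1 Tubb3 alone was called, at 1.01 (limma FDR 0.0312). Beside these values, cortex markers were higher in AGM than in AG in 8 of 8 cases and chromaffin markers in 5 of 6. Their part in the Tubb3 and Prph values was not tested. The share of Prph in the 5 neuronal intermediate filament genes was 19.5% ± 3.56 in AG (SD, n = 3) and 4.82% ± 1.32 in AGM (SD, n = 5), with no overlap (exact permutation p = 0.0179, adjusted p = 0.0319, the smallest raw p that 5 against 3 allow). That of Stmn2 among stathmins was 6.39% ± 0.654 in AGM, 1.83 percentage points under AG (same exact permutation p).

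The tumor groups were compared to ask what differed between tumors with IGF2BP1 alone and with both transgenes. They also differed in IGF2BP1 copies, since 7 of the 8 TI samples were IGF2BP1 +/+ while in TIM, by the genotyping the study describes, MYCN took the place of 1 copy, so MYCN and copy number cannot be told apart. Prph was 2.40 ± 0.65 lower in TIM than in TI on the log2 scale (SE, limma FDR 0.0116), a mean level 0.123 times that of TI, and ranked last of all 10171 genes by fold change. It was the only member called, and 12.9% of tested genes were called lower. The groups overlapped: 2 TIM libraries lay below every TI library and none above every TI library. The call held in each of 24 fits that left out 1 library (FDR 0.00102 to 0.0283) and was lost when only TI and TIM set the spread (-2.40, limma FDR 0.0526). The share of Prph among neuronal intermediate filaments was 22.9% ± 18.7 in TI, against 4.31% ± 4.71 in TIM (SD, n = 8 each), a difference of 18.6 percentage points (exact permutation p = 0.0172, adjusted p = 0.0319). The other 9 members differed by -0.53 to 0.25 on the log2 scale, with SEs of 0.23 to 0.53. The next largest difference was that of Dcx, -0.53 ± 0.27 (SE, limma FDR 0.161). Without TI library 6, Dcx (-0.78, limma FDR 0.00756) and Stmn2 (-0.55, limma FDR 0.0116) were also lower in TIM. Of the TI samples 6 came from run 1 and none of the TIM samples did.

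The difference between tumor and gland with the MYCN transgene (TIM minus AGM) was set against that without it (TI minus AG). The AG samples also lacked Cre, and TI and TIM differed in IGF2BP1 copies as above. No member was called in the difference of these differences by limma or limma-voom, 0 of 10 had an unadjusted limma p under 0.05, while 3.85% of all tested genes were called higher and 6.15% lower. The estimate was -2.20 ± 1.16 for Prph (SE, limma FDR 0.258), from differences of 1.86 in TIM minus AGM and 4.06 in TI minus AG. For the other 9 it lay between -0.54 and 0.13. Prph in TIM vs AGM, at 1.86 ± 0.74 (SE, limma FDR 0.033), was no longer called when any 1 of the 5 AGM libraries or TIM library 3 or 8 was left out (1.55 to 1.87, FDR 0.0528 to 0.0676), nor with limma-voom on the recovered reads (4.92, FDR 0.218).

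By mean FPKM the tumor levels followed the order Tuba1a, Tubb2b, Tubb3, Gap43, Nefl, Nefm, Prph, Stmn2, Map1b and Dcx in TI and Tuba1a, Tubb3, Tubb2b, Gap43, Nefl, Nefm, Stmn2, Map1b, Prph and Dcx in TIM. Tuba1a exceeded the next gene in 8 of 8 libraries of either group and by more than the larger SD. From the beta-tubulins down to Stmn2, no neighbours in that order differed by more than the larger of their SDs in either group, though Nefl exceeded Nefm in 8 of 8 TI and 6 of 8 TIM libraries. Levels of different genes are per kilobase of the length in the table, which for some members was not that of the reference transcript (5602 bases for Stmn2 against 2139, and 1868 bases for Tubb3 against 3206), so the order between genes shifts with the length used. In AG, Tuba1a at 15.8 FPKM was followed by Map1b at 0.937 and Tubb3 at 0.765 FPKM, and of the 9 neighbouring pairs Tubb3 and Stmn2 were the pair that did not differ by more than the larger SD. Map1b, Prph and Dcx in TIM were not separated by that measure either.

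Within the tumor groups the members did not vary together as 1 block. After each gene was standardised within TI and within TIM, the correlation of a member with the mean of the other 9 over the 16 tumors was 0.89 for Tubb2b, 0.86 for Nefl, 0.85 for Nefm, Dcx and Gap43, 0.73 for Stmn2, 0.71 for Tuba1a and 0.63 for Tubb3. It was 0.26 for Prph and -0.24 for Map1b. Within TI and within TIM apart, it was -0.69 and 0.24 for Map1b, 0.08 and 0.44 for Prph, and 0.90 and 0.40 for Tubb3. For the remaining members it lay between 0.58 and 0.89 in either group. These are descriptions over libraries that differ in depth and run. TI library 6 was the lowest TI library for 7 of 10 members and the highest for Map1b. Without it, a choice made after seeing the data, the values over the tumors of both groups were 0.03 for Map1b, 0.34 for Prph and 0.55 to 0.89 for the other 8. The same library had the highest summed chromaffin markers of TI (1626 FPKM, against 73.9 to 411 FPKM in the other 7), the highest neuroblast markers (661 FPKM, against 189 to 417 FPKM) and the highest cortex markers (10.1 FPKM, against 0.0173 to 2.71 FPKM). The chromaffin and neuroblast lists share the genes Th and Dbh, so their sums are not separate traits of a library. TIM library 2, the lowest TIM library for 5 members, had chromaffin markers of 3465 FPKM, and TIM libraries 3 and 6, the highest for all 10 members between them, had the 2 lowest chromaffin sums of TIM, 125 and 109 FPKM. The highest chromaffin sum of TIM, 4645 FPKM, belonged to library 5, which was neither lowest nor highest for any member. The part of these cell markers in the members' levels was not tested.

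**Figure D4:**
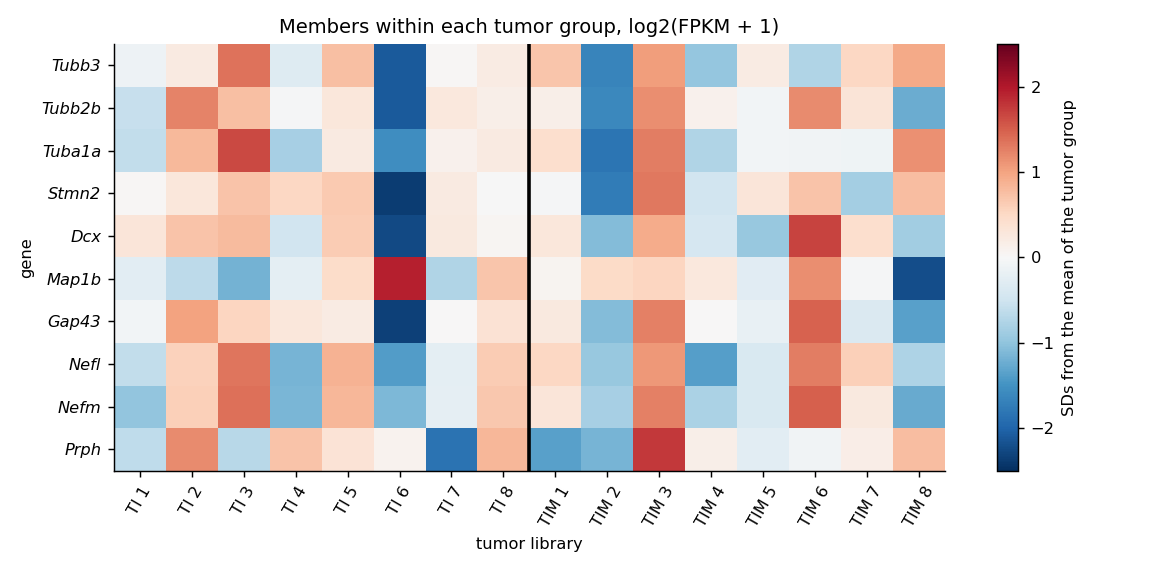
Level of the 10 genes in the 8 TI and 8 TIM libraries, as the number of SDs from the mean of the tumor group on the log2(FPKM + 1) scale (red above, blue below). TI library 6 is low in most genes and high in Map1b, TIM library 3 is above the mean in every gene, and the Prph row differs from those of Nefl and Nefm.

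Correlations of 8 pairs were computed within TI and within TIM (n = 8 each), with exact permutation tests adjusted over 16 relations. Nefl and Nefm were closely related in TI (r = 0.98, adjusted p = 0.00119, rho = 0.98, adjusted p = 0.00635, exact permutation) and in TIM (r = 0.94, adjusted p = 0.0082, rho = 0.88, adjusted p = 0.0193, exact permutation), and remained so without the 2 libraries farthest from the median of Nefl (r = 0.99 and 0.96). Their overlapping locus applies here as above. Tubb3 and Tuba1a were related in TI (r = 0.89, adjusted p = 0.0119, rho = 0.93, adjusted p = 0.0119, exact permutation) and TIM (r = 0.92, adjusted p = 0.00119, rho = 0.93, adjusted p = 0.0119, exact permutation). Without the 2 farthest libraries r was 0.68 (exact permutation p = 0.122) and 0.74 (exact permutation p = 0.0667), so that relation rested in part on those libraries. Tubb2b and Tuba1a were related in TI (r = 0.86, adjusted p = 0.0206, rho = 0.88, adjusted p = 0.0193, exact permutation), with r = 0.86 without the 2 farthest libraries (exact permutation p = 0.0556), and in TIM had r = 0.41 (adjusted p = 0.428, rho = 0.29, adjusted p = 0.572, exact permutation).

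No relation of Prph with Nefl, or with Th, which encodes the enzyme that starts catecholamine synthesis, passed the test. With Nefl it had r = 0.06 in TI (adjusted p = 0.884, rank correlation near 0, exact permutation) and r = 0.23 in TIM (adjusted p = 0.661, rho = 0.21, adjusted p = 0.66, exact permutation). With Th it had r = -0.11 in TI (adjusted p = 0.856, rho = -0.29, adjusted p = 0.572, exact permutation) and -0.51 in TIM (adjusted p = 0.285, rho = -0.57, adjusted p = 0.302, exact permutation). Without the 2 farthest libraries r was 0.43 in TI and 0.40 in TIM for Nefl and Prph (exact permutation p = 0.393 and 0.422), and 0.52, of the opposite sign, in TI and -0.30 in TIM for Prph and Th (exact permutation p = 0.307 and 0.511). Stmn2 and Gap43 had r = 0.93 in TI, which did not pass (adjusted p = 0.0951, exact permutation) and was 0.10 without the 2 farthest libraries. Dcx and Map1b had r = -0.80 in TI (adjusted p = 0.0772, exact permutation) and 0.58 in TIM (adjusted p = 0.238, exact permutation). Tubb3 and the proliferation gene Mki67 had r = 0.54 (adjusted p = 0.283) and rho = 0.88 (adjusted p = 0.0193) in TI by exact permutation, and in TIM r = 0.28 (adjusted p = 0.603) and rho = 0.36 (adjusted p = 0.519).

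**Figure D5:**
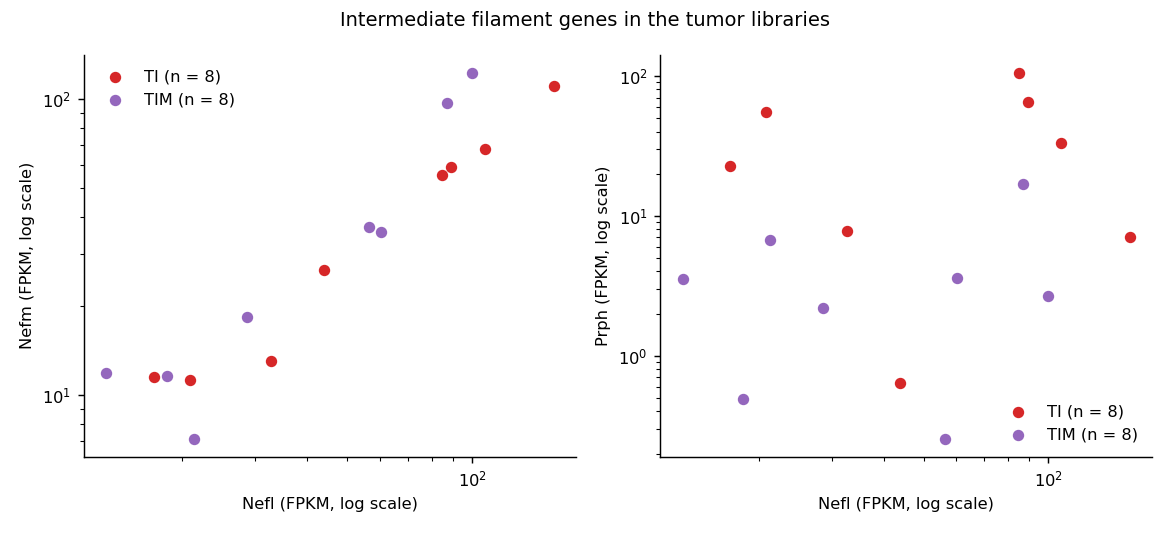
Nefm (left) and Prph (right) against Nefl in FPKM on log axes, with points for TI (n = 8) and TIM (n = 8) libraries. Nefm follows Nefl in both tumor groups (r = 0.98 and 0.94 on the log2 scale), and for Prph r is 0.06 and 0.23.

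The 10 other tested genes whose level followed the members' mean most closely over the 16 tumors were Maoa (r = 0.94), Chn1 (0.93), Nell2 (0.92), Arrb2 (0.92), Rps6ka1 (0.91), Adam19 (0.91), Eya1 (0.90), Pxylp1 (0.90), Ttll1 (0.90) and Ndc1 (0.89), after the mean of each tumor group was subtracted. Ttll1 encodes part of a complex that adds glutamate chains to tubulin, and Eya1 a transcriptional cofactor of developing neural tissue. Eya1 had a mean of 7.90 ± 4.07 FPKM for TI and 4.72 ± 2.23 FPKM for TIM (SD, n = 8 each), against 0.21 ± 0.0381 FPKM for AG (SD, n = 3). Rps6ka1 was at 2.14 ± 0.282 FPKM in AG and 0.907 ± 0.21 FPKM in TI, so a gene may follow the members among tumors and be lower in tumors than in glands.

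The counts for other genes of the cytoskeleton and of neurites are read beside the shares of all tested genes called higher against AG, 24.6% for TI and 22.5% for TIM. Some of these genes, such as Dpysl4, Dpysl5 and Stmn4, were under 1 FPKM in every gland and were tested only through the tumors. Their rise was partly fixed in advance, as for most members, and the shares and medians of all tested genes do not allow for that. The alpha-tubulins (TI), the intermediate filament and lamin genes other than the neuronal ones and, in TIM, the severing enzymes lay near or under these shares. Among beta-tubulins outside the members, 3 of 6 were higher and 1 lower in TI than in AG (Tubb6, -0.93) and 3 of 6 higher in TIM, with Tubb4a and Tubb2a in front (4.05 and 3.396 on the log2 scale in TI, 4.50 and 4.07 in TIM). Among tested alpha-tubulins outside the members, 1 of 4 was higher in TI (Tuba1b, 1.15) and 2 of 4 in TIM. The gamma-tubulins Tubg1 and Tubg2, which seed microtubules, were higher in both (1.18 and 1.94 in TI, 0.64 and 1.56 in TIM). All 3 other stathmins were higher in both tumor groups, as were all 5 collapsin response mediator proteins, which carry guidance signals to microtubules, with Crmp1 at 3.70 in TI and 3.66 in TIM. Their medians were 4.55 and 4.12 for the stathmins and 2.78 and 2.63 for the mediator proteins, beside -0.0021 and -0.0049 for all genes.

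Of 19 other microtubule-associated proteins, 14 were higher and none lower in TI and 12 were higher and none lower in TIM, with Map6 (2.04 and 2.28) and Map2 (1.87 and 1.84) in front and medians of 0.77 and 0.78. Mapt, which encodes tau, was not called in either, at 0.90 (TI, limma FDR 0.0575) and 0.51 (TIM, limma FDR 0.288). Of 15 other growth cone membrane and actin genes, 11 were higher and 2 lower in each tumor group, with Basp1 (5.61 and 5.54) and Rtn1 (4.19 and 3.98) in front. The lower ones were Cttn (-0.66 and -0.94) and Cttnbp2 (-1.02 and -1.06). The neuronal intermediate filament genes outside the members, Ina and Nefh, were higher in both (3.42 and 1.53 in TI, 4.02 and 2.01 in TIM). Of 7 tested other intermediate filament and lamin genes, 2 were higher in TI (Lmnb1, 1.49, and Lmnb2, 0.95) and 1 in TIM (Lmna, 1.47), and 0 were lower.

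Enzymes that fold or modify tubulin were higher in 8 of 13 cases in TI and 7 of 13 in TIM, where 1 was lower (Svbp, -0.89). Vash1 and Vash2, which remove the last tyrosine of alpha-tubulin, were higher in both (1.63 and 1.74 in TI, 1.58 and 1.45 in TIM), while Svbp encodes their partner and was at -0.45 in TI (limma FDR 0.0579). Of 4 tested severing enzymes, 3 were higher and 1 lower (Katna1, -0.42) in TI, with Spast at 1.104, and none was higher and 1 lower in TIM. Of 9 neurite adhesion genes, 6 were higher and 1 lower in TI (Alcam, -0.77) and 8 higher in TIM, Ncam1 (3.03 and 2.64) and L1cam (2.48 and 2.22) leading. Thy1 was not called in TI (0.02, limma FDR 0.9999) and was 2.13 higher in TIM (limma FDR 0.000993). No gene of these lists was called in opposite directions in TI vs AG and TIM vs AG.

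Lists of cell markers gave the setting of these changes. They are read beside 24.6% and 22.5% of all tested genes called higher than in AG in TI and TIM. Of the 10171 tested genes 2822 were called lower in TI and 2897 in TIM. In lists this short the counts alone do not show a change in cell types. Elavl2, Elavl3 and Elavl4 of the pan-neuronal list were under 1 FPKM in every gland and were tested only through the tumors. Of 9 pan-neuronal markers, 7 were higher in TI and 9 in TIM, and their sum rose from 10.8 to 13.3 FPKM in AG to 246 to 479 FPKM in TI and 221 to 320 FPKM in TIM. Of 6 proliferation markers, 4 were higher in each tumor group. Endothelial markers were lower in 2 of 4 cases in TI and 4 of 4 in TIM, fibroblast markers lower in 3 of 5 and higher in 1 of 5 in each, adipocyte markers lower in 4 of 4 in each, and myeloid and leukocyte markers lower in 1 of 3 tested in TI and 2 of 3 in TIM. Of 5 tested Schwann cell and sustentacular markers, 2 were lower in TI and 1 in TIM, and none was higher in either. S100b and Foxd3 averaged under 0.1 FPKM in TI, and the highest sums of TIM were 44.3 FPKM in library 5 and 23.0 FPKM in library 1. The part of these markers in the rise of the members was not tested.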

How the data were processed

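RNA-seq libraries, made from polyA RNA and strand-specific, of mouse adrenal glands (AG, n = 3; AGM, n = 5) and tumors (TI, n = 8; TIM, n = 8) were analysed from 1 deposited table of 21833 protein-coding genes. Its values are FPKM, which the authors made, according to their methods, by trimming reads (cutadapt 2.8), aligning them to the mm39 build (HISAT2 2.1.0), sorting (SAMtools 1.10), counting reads per gene (featureCounts 2.0.0), correcting for batch with ComBat-seq and normalising by TMM (edgeR 3.40). Batch correction before deposit can move differences between groups that belong to different runs. The table's 9 columns of fold changes, p-values and FDRs for the authors' own comparisons were not used.

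The 10171 genes that reached 1 FPKM in 3 or more libraries were kept, and log2(FPKM + 1) was fitted with limma 3.58.1 in R 4.3.3 over all 24 libraries, with 1 mean per group, an intensity trend and Benjamini-Hochberg adjustment over all genes (threshold 0.05). Fold changes on this scale understate those of genes near or under 1 FPKM. Shares and correlations were tested by exact two-sided permutation (scipy 1.17.1). The values were whole multiples of 1 read in 100% of cases, and reads recovered from them (12334076 to 23683176 per library outside the 126 genes above 1000 FPKM) were used for limma-voom as an alternative. The other alternatives were a pseudocount of 0.1, other filters and scalings, a spread from only the groups compared, and leaving out each library in turn. On simulated normal values, limma recovered 92% of 200 genes changed by 2 on the log2 scale in TI vs AG, and 5.15% of its calls were false. That simulation gave each gene 1 SD for all groups. In the data the spread differed between glands and tumors, so these rates need not hold for the calls reported here. Members and gene lists were chosen with earlier results of these data known. Other genes were named as the 2 with the largest called change in each pathway list whose tumors all lay on one side of AG, and the 10 most like the members' mean over the tumors, and Thy1, Mapt, Alcam, Tubb6, Cttn, Cttnbp2, Lmnb1 and Svbp were named after their values were seen.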

Additional observations from a re-analysis of the deposited data

Results flagged for a closer look

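In each of the 10 genes, the lowest and highest libraries of AGM, TI and TIM were tested by Dixon's ratio at the 95% level. Of the 30 groups 3 held a library that stood apart. The ratio was taken on unlogged FPKM, and its chance rate of about 1 in 20 holds for normally distributed values. The flags may thus depend on the scale, and their number cannot be read against that rate. Stmn2 was at 6.45 FPKM in TI library 6, against 24.5 FPKM in the next lowest TI library. Map1b was at 19.4 FPKM in the same library, against 10.6 FPKM in the next highest. Prph was at 17.0 FPKM in TIM library 3, against 6.70 FPKM in the next highest TIM library. TI library 6 also had the highest chromaffin, neuroblast and cortex marker sums of TI, and their part in these values was not tested. The chromaffin and neuroblast sums share Th and Dbh and are not separate traits.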

How the results depend on the processing

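The calls of the members in TI vs AG and TIM vs AG rested little on any single library: 10 and 9 were called in each of 24 fits without 1 library, and 8 and 8 with limma-voom, where Dcx and Prph were not called in either. With at least 1 FPKM required in every library, Tuba1a alone could be tested, so that 1 member was called in TI vs AG, TIM vs AG and TIM vs AGM and 0 in TIM vs TI, and the genes called were 1627, 1534, 569 (AGM vs AG), 737 (TIM vs TI), 1944 (TIM vs AGM) and 14 (difference of differences), against 5327, 5190, 2908, 2332, 6639 and 1018. In AGM vs AG, 1 member was called with a pseudocount of 0.1 and 2 when only the 2 groups set the spread, and in TIM vs TI 0 with only the 2 groups. Genes called in AGM vs AG were 5863 with FPKM recomputed outside the extreme genes and 6312 with only the 2 groups, in TIM vs TI 3595 and 1309, and in the difference of differences 600 (pseudocount 0.1), 1626 (no filter) and 407 (limma-voom). The cause was not tested.

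Without 1 library, genes called ranged from 4468 to 5583 in TI vs AG, 4293 to 5449 in TIM vs AG, 1896 to 3326 in AGM vs AG (lowest without AG library 1, 1935 without library 2), 1831 to 2788 in TIM vs TI, 6076 to 6930 in TIM vs AGM and 691 to 1532 in the difference of differences (highest without TIM library 5). Members called ranged from 1 to 3 in TIM vs TI (3 without TI library 6) and from 9 to 10 in TIM vs AGM. The settings with recomputed FPKM and limma-voom also changed the genes tested (14422 and 10071, against 10171), and limma-voom the model. Under them the median of all genes in AGM vs AG was -0.34 (recomputed FPKM) and -0.51 (limma-voom), in TIM vs AG -0.14 and -0.23, in TIM vs TI -0.12 and -0.17, and in TIM vs AGM 0.24 and 0.36. The part of calls that were higher moved from 51.2% to 21.8%, 13.9% and 64.5% (median of ratios) in AGM vs AG, from 43.6% to 29.9%, 22.6% and 55.3% in TIM vs TI, from 44.2% to 31.6% (limma-voom) in TIM vs AG and from 48.8% to 59.9% and 61.0% in TIM vs AGM.

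For shares, similar copies were left out (Tuba1b, Tuba1c, Tuba3a and Tuba3b of the alpha-tubulins, Tubb2a of the beta-tubulins). Tuba1a then differed by -3.44 points in TIM vs AG (exact permutation p = 0.461) and -41.1 in AGM vs AG (p = 0.0179, exact). Both were reversed, from a share near its ceiling in AG. Tuba1a differed by -5.79 in TIM vs TI (exact p = 0.00715), and Tubb3 by 1.54 in AGM vs AG (exact p = 0.0357). With medians Tubb3 differed by 2.81 in TIM vs TI, Prph by -12.2 and Stmn2 by -2.20 in AGM vs AG, none past 0.05. Without 1 library, Tubb3 ranged from 2.96 to 4.39 (TIM vs TI), Tuba1a from -3.93 to -1.24 (TIM vs TI; -3.93 without TI library 6) and Stmn2 from -2.17 to -1.59 (AGM vs AG). Correlations without the 2 farthest libraries were 0.68 (Tubb3 and Tuba1a, TI), 0.74 (the same, TIM), 0.86 (Tubb2b and Tuba1a, TI), 0.10 (Stmn2 and Gap43, TI) and -0.51 (Dcx and Map1b, TI), and on unlogged FPKM 0.65 (Stmn2 and Gap43, TI) and 0.75 (Dcx and Map1b, TIM). No paired analysis was possible because the columns name the group of a library but not its sample, so that no replicate number could be tied to a column. Members under 1 FPKM in every gland rested on 5 to 187 recovered, batch-corrected reads per gland library. Their fold changes are limited by such low counts.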
